A study of Mus musculus with 14 samples.

Results

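The clustered histone genes are the replication-dependent histone genes that sit together in the Hist1, Hist2, Hist3 and Hist4 clusters of the mouse genome. They were read here in RNA-seq of splenic regulatory T cells (Treg cells) from mice labelled as talin 1 knockout (KO) and wild type (WT). A gene was a member if its symbol began with Hist1h, Hist2h, Hist3h or Hist4h and if it had 30 or more estimated counts summed over the 14 deposited abundance tables. The tables held 68 genes with such symbols among 30284 genes, and 34 of the 68 were members. The members held 18437 of 225832931 estimated counts. Just inside the limit was Hist1h1b with 30 estimated counts, and just outside it was Hist1h3d with 27.8. The 34 genes under the limit had 377 estimated counts together, which was 2.01% of all clustered histone counts, and 4 of them were listed at 0 in every table. Total counts chose the members and are given only as a description.

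The KO-labelled mice carried Tln1fl/fl with Foxp3cre/wt, and the WT mice carried Tln1wt/wt with the same Foxp3cre/wt, so Cre driven from Foxp3 was present in both groups. All mice were C57/B6, their age was not stated in the labels, and the cells were sorted from spleen as Foxp3+YFP+ cells. The labels give 3 KO units and 4 WT units, each with 2 samples that were added here, and a library could come from 1 or 2 animals. No label says that units came from separate mice, and the p-values therefore cover the spread among the units alone, part of which may be technical. The KO units held 38811489 to 56109143 estimated reads and the WT units 12851425 to 39214264, so low counts were less precise in the WT group.

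Histones H2A, H2B, H3 and H4 form the protein core around which DNA is wound, and linker histone H1 binds where the DNA enters and leaves that core. Most clustered histone genes have no introns, and their mRNA is made mainly in S phase, when new DNA is packed. That mRNA usually ends in a short stem-loop in place of a poly(A) tail. The stem-loop is bound by the protein Slbp, and some clustered genes also give a longer, polyadenylated mRNA, mostly in cells that do not divide. Replacement histones such as H2A.Z and H3.3 come from separate genes that are read throughout the cell cycle.

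The stem-loop is shown because it sets the members apart from other genes. It was searched as a pattern of 16 bases, with stem arms of 6 bases and a loop of 4 bases, in the GENCODE M21 transcripts (GRCm38). At some stem positions the pattern allowed bases that do not pair. Of the 34 members, 24 held a match. Annotated transcripts need not reach the end of the mRNA, so a member without a match may still have a stem-loop. Of 85956 transcripts of other genes, 153 held a match, or 0.178%. The forms are written 5′ to 3′ with the loop in capitals.
Form of 12 members of the H1, H2A, H2B and H3 classes: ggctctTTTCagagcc
Form of 6 members, all H4: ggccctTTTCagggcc
Form of 3 members of the H2B and H3 classes: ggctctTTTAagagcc
Form of 2 members, Hist1h4i and Hist2h4: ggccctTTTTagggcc
Form of Hist2h2ac: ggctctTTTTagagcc
All 8 H4 members with a stem-loop thus had the ggccct stem, and the other 16 members had the ggctct stem.

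The promoters of Hist1h1c and Hist1h2bg are shown because these 2 members are the ones that passed the test between the groups. Each run is the 250 bases before the RefSeq start on GRCm38.p6, written 5′ to 3′ on the + strand with the searched motifs in capitals.
Hist1h1c, chr13:23738557-23738806, + strand: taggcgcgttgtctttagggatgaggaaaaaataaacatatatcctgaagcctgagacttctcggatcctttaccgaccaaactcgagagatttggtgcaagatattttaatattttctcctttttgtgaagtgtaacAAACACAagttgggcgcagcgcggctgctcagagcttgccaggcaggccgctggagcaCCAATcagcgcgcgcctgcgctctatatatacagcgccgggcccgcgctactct
Hist1h2bg, chr13:23571150-23571399, + strand: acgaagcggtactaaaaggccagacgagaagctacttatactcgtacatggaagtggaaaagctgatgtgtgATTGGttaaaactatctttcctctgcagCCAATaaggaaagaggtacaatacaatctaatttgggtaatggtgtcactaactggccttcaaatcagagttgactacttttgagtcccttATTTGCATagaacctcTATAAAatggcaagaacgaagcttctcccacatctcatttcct
The capitals mark CCAAT and the H1 box AAACACA in Hist1h1c, and CCAAT on both strands, the octamer ATTTGCAT and TATAAA in Hist1h2bg. In windows that ran on to 50 bases after the start, searched on both strands, 29 of the 34 members could be matched among 27025 RefSeq promoters. ATTTGCAT was in 5 of the 29 (17.2%), against 1.75% of all promoters, and all 5 were H2A or H2B genes. CCAAT was in 23 of 29 (79.3%), against 37.9% of all promoters, and was found in all matched promoters of the H1, H2A, H2B and H3 classes but in 2 of the 8 of H4. TATAAA was in 15 of 29 (51.7%), against 14.2%. AAACACA was in 4 of 29 (13.8%), against 7.14%, and the 4 were among the 5 H1 promoters. The motifs do not overlap in the runs printed, and a match is a description of the letters only.

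The libraries were checked before the members were compared. Tln1, the gene the labels name as deleted, was at 788, 901 and 1014 counts per 1000000 library counts (CPM) in KO units 1 to 3 and at 634, 543, 847 and 649 CPM in WT units 1 to 4. The group means differed by 0.44 on the log2 scale, with a 2-sided exact permutation p of 0.114 where 0.0571 is the smallest the design allows, so Tln1 was not lower in the units labelled KO. The region deleted by Cre is not given in the sources used here, so counts over the whole gene do not check the labels further, and the group is called KO-labelled below. Foxp3, the factor that defines Treg cells, was at 370, 514 and 401 CPM in KO-labelled units and 468, 324, 478 and 406 CPM in WT units. Of 12 B cell genes tested, 8 were higher in KO-labelled units, and their sum was 4367 to 10720 CPM there, against 448 to 1623 CPM in WT units. Of 10 neutrophil genes, 9 were higher, but 4 without WT unit 2 and 3 without WT unit 4. Their sums were 274 to 1629 CPM in KO-labelled units and 1.95 to 15.5 CPM in WT units. Of 9 erythroid genes tested none passed in edgeR or limma-voom, 8 were higher at an unadjusted p under 0.05 in edgeR and 6 passed in DESeq2, with sums of 150 to 3200 CPM in KO-labelled units and 5.99 to 88.1 CPM in WT units. Of 10 myeloid genes 4 were higher, but 1 without KO unit 1, KO unit 3 or WT unit 4, and 2 without KO unit 2 or WT unit 2, with sums of 217 to 528 CPM in KO-labelled units and 9.67 to 111 CPM in WT units. These counts with a unit left out were added after the data were seen. No gene of these lists was at 0 in every unit of a group. KO-labelled unit 3 had the highest sum of each of the 4 lists, but single genes did not all follow the sum. In the neutrophil list, Mpo was at 114, 94 and 930 CPM in KO-labelled units 1 to 3, and S100a9 at 104, 39.3 and 62.2 CPM. In bulk libraries more cells of a type and more RNA per cell cannot be told apart.

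Between the groups, 2 of the clustered histone genes were higher in KO-labelled units, Hist1h1c by 3.54-fold and Hist1h2bg by 11.6-fold, and none was lower. Hist1h1c, which encodes linker histone H1.2, had the highest mean TPM, a level per transcript length, of the members, and Hist1h2bg encodes a core histone H2B. Of the 34 members, 24 had enough counts to be tested, so the 2 calls were 8.33% of those tested, beside 7.07% of all 15775 genes tested that were called higher and 6.52% called lower. The share of members called was therefore near the background. At an unadjusted p under 0.05, 4 members were higher and 0 lower, against 17.6% and 15% of all genes. With DESeq2 and with limma-voom 3 members were called higher, beside 11.7% and 7.34% of all genes, and none lower, beside 10.8% and 6.94%. With a filter of 10 or more estimated counts in total, all 34 were tested and 3 were higher and none lower, beside 5.82% and 5.04% of all genes. Calls in the main comparison were made with edgeR's quasi-likelihood test at a Benjamini-Hochberg adjusted p under 0.05 over all genes tested. The log2 fold change of KO-labelled over WT units was above 0 in 19 of the 24 (79.2%), against 54.2% of all genes, and its median was 0.75 for the 24 and 0.06 for all genes. Because the limit on total counts is met more easily by genes that are high in the deeper KO-labelled units, these summaries of the genes that passed describe them and support nothing. The median standard error was 0.69 for the 24 members and 0.25 for all genes tested. The standard error covers the spread among 3 and 4 units as well as counting error, and it was as low as 0.21 for Hist1h1c.

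**Figure D1:**
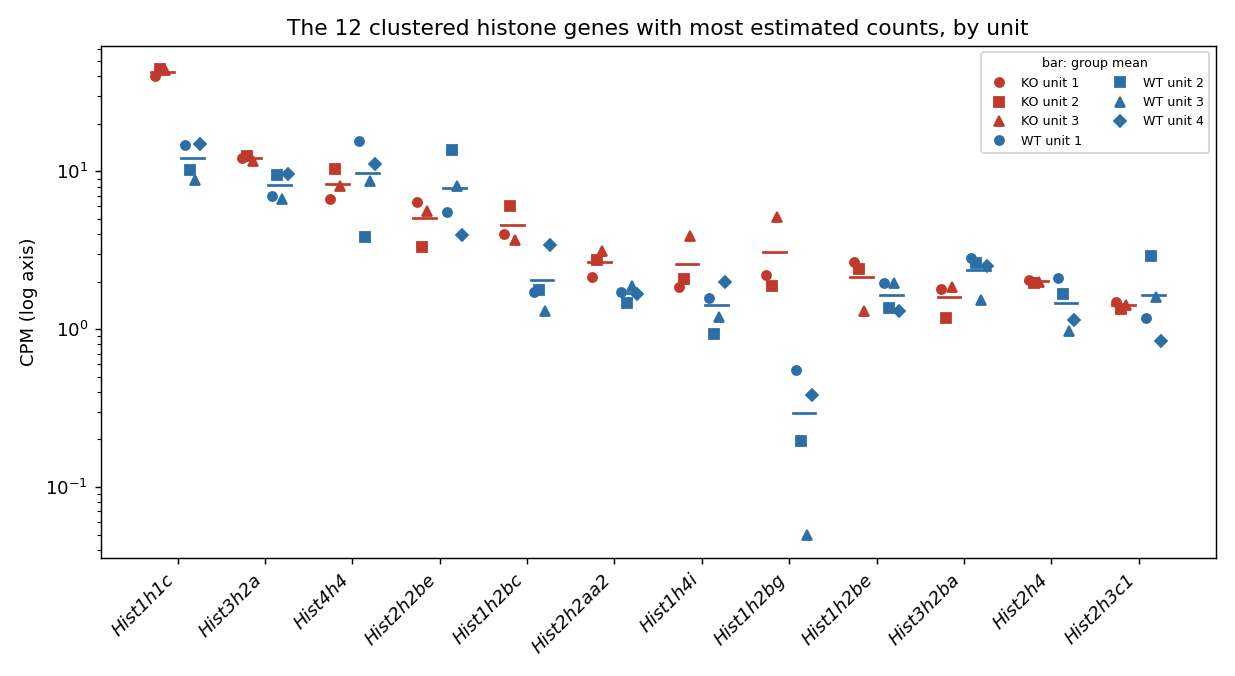
CPM on a log axis for the 12 members with the most estimated counts, with 1 point a unit, KO-labelled units left in red and WT units right in blue. The 3 KO-labelled units of Hist1h1c sit at 40.4 to 44.4 CPM, above the 4 WT units at 8.79 to 14.9 CPM, while the units of Hist4h4 and Hist2h2be overlap between the groups.

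Hist1h1c lies at chr13:23738808-23740367 on the + strand. It was at 40.4, 44.4 and 43.7 CPM in KO-labelled units 1 to 3, against 14.7, 10.2, 8.79 and 14.9 CPM in WT units 1 to 4. The 3 KO-labelled units lay close together, and each was above every WT unit. The log2 fold change was 1.82 ± 0.21 (SE), with an adjusted p of 0.00117 in edgeR. These values rest on 1739 to 2468 estimated counts a unit in the KO-labelled group and 187 to 352 in the WT group. Per transcript length, the level was 26 ± 2.91 TPM (SD, n = 3) in KO-labelled units and 7.59 ± 1.79 TPM (SD, n = 4) in WT units. Of the 31-base words of its transcript, 11.4% also occurred in other genes, mostly in Hist1h1d, so few of its reads could belong to a copy. The change passed in 14 of 14 alternative settings, with log2 fold changes of 1.50 to 1.97, and the smallest came with a correction for GC content and length.

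The other 4 H1 members, Hist1h1a, Hist1h1b, Hist1h1d and Hist1h1e, had far fewer counts. Their sum was 0.708, 1.53 and 2.62 CPM in KO-labelled units, against 1.1, 0.391, 0.999 and 0.838 CPM in WT units, and the groups overlapped. Hist1h1e was at 0.398, 0.587 and 0.974 CPM in KO-labelled units and 0.472, 0.391, 0.0999 and 0.838 CPM in WT units. Hist1h1a and Hist1h1b, linker histones of dividing cells, had too few counts to be tested. The H1 class summed to 44.5 ± 2.88 CPM in KO-labelled units (SD, n = 3) and 13 ± 3.26 CPM in WT units (SD, n = 4), and nearly all of it was Hist1h1c.

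Hist1h2bg lies at chr13:23571396-23572013 on the + strand. It was at 2.21, 1.89 and 5.15 CPM in KO-labelled units and at 0.551, 0.195, 0.0499 and 0.381 CPM in WT units. The groups did not overlap, and KO-labelled unit 3 was the highest. The log2 fold change was 3.54 ± 0.72 (SE; adjusted p = 0.014 in edgeR), and 2.90 with the GC and length correction. It passed in 12 of 14 alternative settings. The WT level was near its limit of detection: 1.86 to 6.78 estimated counts a unit, against 73.7 to 291 in KO-labelled units, where 3 counts stand for 0.0765 to 0.233 CPM in WT units. Without KO-labelled unit 3 the log2 fold change was 2.92 and no longer passed, with an edgeR adjusted p of 0.0563. Reads could be split with near copies, since 54.8% of its 31-base words occurred in other genes and 46.8% in Hist1h2bc. These words come from its M21 transcript of 618 bases, while the transcript given the counts had 477 bases. The share in the counted sequence is therefore not known.

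Hist1h2bc, another H2B gene and the nearest copy, was at 4.03, 6 and 3.65 CPM in KO-labelled units and 1.73, 1.76, 1.3 and 3.43 CPM in WT units. The groups did not overlap, but the lowest KO-labelled unit and the highest WT unit were close. The log2 fold change was 1.16 ± 0.41 (SE) with an edgeR adjusted p of 0.0793, while the third call of DESeq2 and of limma-voom was this gene, with adjusted p-values of 0.0442 and 0.0431. Added together, which removes the effect of reads split between them, Hist1h2bg and Hist1h2bc were at 6.24, 7.88 and 8.8 CPM in KO-labelled units and 2.28, 1.95, 1.35 and 3.81 CPM in WT units. The sum kept the KO-labelled units above every WT unit, with a ratio of the means of 3.25.

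The remaining H2B members did not pass the test. Hist3h2ba was at 1.81, 1.17 and 1.84 CPM in KO-labelled units and 2.83, 2.64, 1.52 and 2.51 CPM in WT units, a log2 fold change of -0.55 ± 0.40 (SE; edgeR adjusted p = 0.369). Hist2h2be, an H2B gene studied in mouse olfactory neurons that was picked for mention with its values in view, was at 6.35, 3.32 and 5.61 CPM in KO-labelled units and 5.51, 13.6, 8.09 and 3.96 CPM in WT units. Both overlapped between the groups. The 11 H2B members together were at 20.2 ± 1.36 CPM in KO-labelled units (SD, n = 3) and 15.7 ± 3.26 CPM in WT units (SD, n = 4), and the units overlapped.

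**Figure D2:**
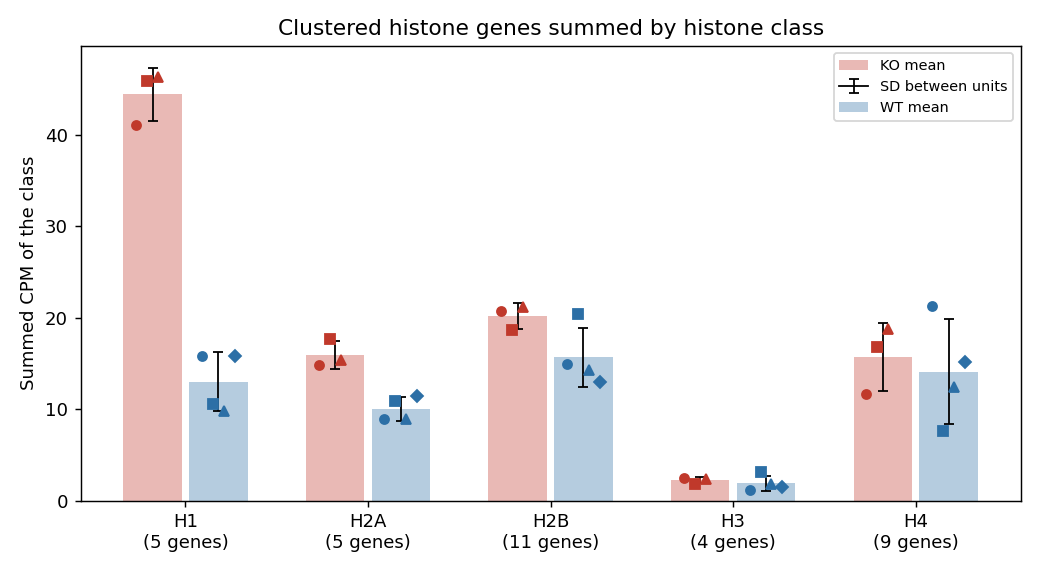
Summed CPM of the members of each histone class, with bars for the mean of the KO-labelled units (left, red) and the WT units (right, blue), error bars for the SD and points for the units (n = 3 and n = 4). The H1 bars are at 44.5 and 13 CPM, while the H3 and H4 units overlap between the groups.

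Of the 5 H2A members, Hist3h2a had the most counts and Hist2h2aa2 the highest level per length. Hist3h2a was at 12.1, 12.6 and 11.7 CPM in KO-labelled units and 7, 9.43, 6.64 and 9.68 CPM in WT units. Its groups did not overlap, but the log2 fold change of 0.57 ± 0.23 (SE) had an edgeR adjusted p of 0.118. It shares 32.1% of its 31-base words with the gene Trim17, and the library kit did not mark strand. Hist2h2aa2 was at 2.15, 2.73 and 3.12 CPM in KO-labelled units and 1.73, 1.47, 1.87 and 1.68 CPM in WT units, with a log2 fold change of 0.66 ± 0.35 (SE; edgeR adjusted p = 0.22). With the GC and length correction that value became -0.01. Every 31-base word of Hist2h2aa2 occurs in another gene, its copy Hist2h2aa1, which was at 0.288, 1.35 and 0.124 CPM in KO-labelled units and listed at 0 in all 4 WT units. The 2 copies together were at 2.43, 4.08 and 3.24 CPM in KO-labelled units and 1.73, 1.47, 1.87 and 1.68 CPM in WT units. The H2A class as a whole was at 14.8, 17.7 and 15.4 CPM in KO-labelled units and 8.89, 10.9, 8.97 and 11.4 CPM in WT units, and these did not overlap.

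The 4 H3 members were the lowest class by counts, with 2.66% of the members' estimated counts. Their sum was 2.48, 1.84 and 2.39 CPM in KO-labelled units and 1.18, 3.08, 1.82 and 1.52 CPM in WT units. Most of it was Hist2h3c1, at 1.48, 1.35 and 1.42 CPM in KO-labelled units and 1.18, 2.93, 1.6 and 0.838 CPM in WT units. Its log2 fold change was -0.22 ± 0.48 (SE; edgeR adjusted p = 0.785), and without WT unit 2, its highest unit, the value was 0.21.

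All H4 genes encode the same protein or nearly so, and no tested gene among the 9 H4 members passed. Hist1h4k, which had the highest level per length in the class, was at 0.111, 0.893 and 1.59 CPM in KO-labelled units and 0.157, 0.293, 0.225 and 0.305 CPM in WT units. KO-labelled unit 1 was below every WT unit while the other two were above, and the log2 fold change was 1.81 ± 0.82 (SE; edgeR adjusted p = 0.156). With the GC and length correction it was 0.73, and in limma-voom 1.16. Near copies hold 86.2% of its 31-base words. Hist4h4, the sole member on chromosome 6 and the H4 gene with the most counts, was also picked for mention with its values in view. It was at 6.66, 10.4 and 8.06 CPM in KO-labelled units and at 15.6, 3.86, 8.64 and 11.2 CPM in WT units. Its WT units spanned a 4.04-fold range that covered all KO-labelled units. The H4 class was at 11.6, 16.8 and 18.8 CPM in KO-labelled units and 21.3, 7.62, 12.4 and 15.1 CPM in WT units, and the groups overlapped.

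**Figure D3:**
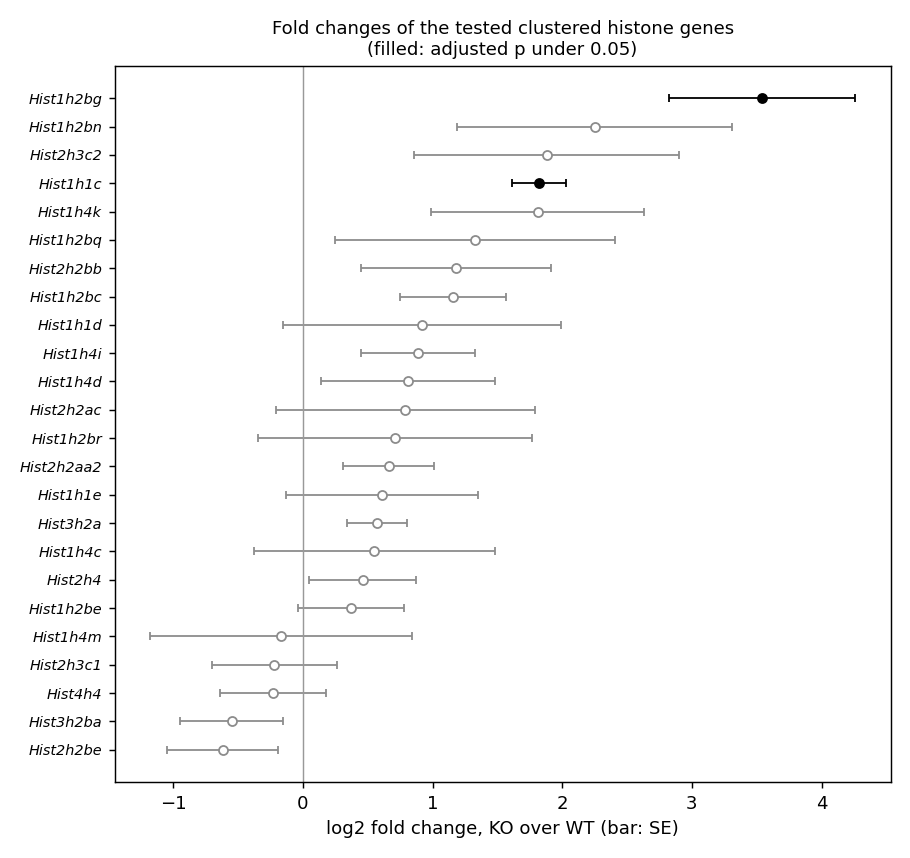
Log2 fold change of KO-labelled over WT units for the 24 members tested, with bars for the standard error and filled points for an adjusted p under 0.05 in edgeR. The 2 filled points are Hist1h1c at 1.82 and Hist1h2bg at 3.54, and members with few counts have wide bars.

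No overlap between the groups was found for 6 of the 24 members tested (25%), all with the KO-labelled units higher, beside 16.7% of all genes in that direction. No tested member had all KO-labelled units below all WT units, beside 14.1% of all genes. The 6 were Hist1h1c, Hist3h2a, Hist1h2bc, Hist2h2aa2, Hist1h2bg and Hist1h2bn. Hist1h2bn, also picked with its values in view, was at 0.686, 0.51 and 0.336 CPM in KO-labelled units and 0, 0, 0.3 and 0 CPM in WT units. The 10 members not tested, among them Hist2h2aa1, had 30 to 73.4 estimated counts over all tables.

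Added up, the 34 members were at 90.8, 101 and 104 CPM in KO-labelled units and 62.1, 52.6, 47.3 and 56.8 CPM in WT units, a ratio of the means of 1.8. Without Hist1h1c they were at 50.4, 56.5 and 60.4 CPM in KO-labelled units and 47.4, 42.4, 38.5 and 41.8 CPM in WT units, and the ratio was 1.31. Without Hist1h1c and Hist1h2bg the ratio was 1.25, with 48.1, 54.6 and 55.2 CPM in KO-labelled units and 46.9, 42.3, 38.4 and 41.4 CPM in WT units. The groups still did not overlap, but KO-labelled unit 1 and WT unit 1 were close.

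By cluster, the 23 Hist1 members on chromosome 13 were at 55.8, 64 and 69.1 CPM in KO-labelled units and 25.9, 16.9, 16.5 and 24.9 CPM in WT units. Without Hist1h1c the cluster was at 15.3, 19.6 and 25.4 CPM in KO-labelled units and 11.2, 6.69, 7.72 and 9.98 CPM in WT units. These sums did not overlap, and both were highest in KO-labelled unit 3. The 8 Hist2 members on chromosome 3 were at 14.5, 12.7 and 13.3 CPM in KO-labelled units and 10.9, 19.8, 14 and 8.46 CPM in WT units, which overlapped. The 2 Hist3 members on chromosome 11 were at 13.9, 13.8 and 13.6 CPM in KO-labelled units and 9.83, 12.1, 8.17 and 12.2 CPM in WT units. No difference between clusters was tested.

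The annotated form of the transcript given the counts also varied among the members. Transcripts whose length equals that in GENCODE M21 and which run more than 100 bases past the stem-loop came from 8 members. They carried 11120 estimated counts, or 60.3% of all member counts, and 6977 of these were from Hist1h1c. These 8 members had no other transcript listed, so all their counts fell on it whatever form the RNA had. The shares by form therefore describe the annotation and do not show which form was present. Leaving Hist1h1c out, the other 7 carried 36.5% of the remaining member counts in KO-labelled units and 35.3% in WT units. That of Hist1h1c runs 840 bases past the loop, that of Hist3h2a 1643 bases and that of Hist2h4 1257 bases. Transcripts that end within 100 bases of the stem-loop came from 6 members and carried 4.72% of the counts, and that of Hist2h2aa2 ends after 35 bases. Transcripts with no stem-loop carried 12.9%, at 10.9, 9.06 and 10.1 CPM in KO-labelled units and 8.91, 15.3, 11.6 and 6.61 CPM in WT units, which overlapped. Some of these were short in the annotation, at 312 bases for Hist1h4k and 381 bases for Hist2h2bb and Hist1h2bn. Whether the annotation stops before a stem-loop was not tested. A further 22.1% of the counts lay on transcripts whose length differs from M21 and which were not placed. Whether RNA was selected by its poly(A) tail is not given in the sources used here, so a low level of a member and the loss of tailless mRNA in library preparation cannot be told apart.

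The replacement histone genes were read as a list beside the clustered genes. Of 11 tested, 2 were higher and none lower, their median log2 fold change was 0.17, and their sum was 1725, 1728 and 1799 CPM in KO-labelled units and 1671, 1863, 1409 and 1799 CPM in WT units. H2afx, the H2A.X variant that is phosphorylated at DNA breaks, was higher, at 15.5, 16.6 and 32.7 CPM in KO-labelled units and 12.8, 10.2, 11.9 and 7.77 CPM in WT units (log2 fold change 1.01 ± 0.29 SE, edgeR adjusted p = 0.0455). Cenpa, the centromeric H3, was at 51, 64.5 and 69 CPM in KO-labelled units and 45.1, 45.9, 28.6 and 40.8 CPM in WT units (0.62 ± 0.18 SE, edgeR adjusted p = 0.0481). Both had all KO-labelled units above all WT units. These 2 calls were not firm: H2afx passed in 5 of 14 alternatives and Cenpa in 6, and without KO-labelled unit 3 their edgeR adjusted p-values were 0.18 and 0.146. Leaving out KO-labelled unit 2 or any 1 WT unit also ended both calls, with edgeR adjusted p-values over the alternatives of up to 0.18 for H2afx and 0.15 for Cenpa. H2afz, which encodes H2A.Z, was at 207, 206 and 224 CPM in KO-labelled units and 408, 332, 209 and 406 CPM in WT units, and did not pass (-0.67 ± 0.22 SE, edgeR adjusted p = 0.0628). The H3.3 genes H3f3a and H3f3b had log2 fold changes of -0.15 and 0.39 with edgeR adjusted p-values of 0.545 and 0.108. The linker gene H1f0, typical of resting cells, had -0.15 and an adjusted p of 0.665 in edgeR.

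Factors that act on histone mRNA and on histones were mostly not called. Of 22 genes for histone transcription and mRNA processing 1 was higher and none lower, with a median log2 fold change of -0.04. Slbp, the stem-loop binding protein, was at 63.6, 60 and 107 CPM in KO-labelled units and 79.5, 68.8, 47.5 and 72.6 CPM in WT units, and the groups overlapped. Npat, a coactivator of histone gene transcription, was at 49.7, 46.9 and 51 CPM in KO-labelled units and 55.2, 58.3, 55.5 and 59.3 CPM in WT units (log2 fold change -0.21, edgeR adjusted p = 0.214). Casp8ap2, needed for processing of histone pre-mRNA, had -0.26 and an adjusted p of 0.27 in edgeR. The gene that was higher was Sympk, a scaffold of the cleavage complex, at 163, 204 and 231 CPM in KO-labelled units and 137, 105, 155 and 123 CPM in WT units (0.61 ± 0.17 SE, edgeR adjusted p = 0.0373). Of 21 histone chaperone genes 1 was higher and 1 lower. Cabin1, part of the HIRA complex that deposits H3.3, was at 157, 230 and 222 CPM in KO-labelled units and 121, 120, 143 and 128 CPM in WT units (0.66 ± 0.15 SE, edgeR adjusted p = 0.0223). Set, a histone chaperone, was the one that was lower, at 144, 119 and 138 CPM in KO-labelled units and 203, 243, 173 and 208 CPM in WT units (-0.63 ± 0.14 SE, edgeR adjusted p = 0.0218). Of 14 alternatives, Sympk passed in 7, Cabin1 in 8 and Set in 10. Without KO-labelled unit 3 the edgeR adjusted p was 0.113 for Sympk, 0.0586 for Cabin1 and 0.0438 for Set. Leaving out KO-labelled unit 2, WT unit 2 or WT unit 4 ended all 3 calls, and leaving out WT unit 1 ended that of Sympk, with edgeR adjusted p-values over the alternatives of up to 0.35, 0.385 and 0.107 for Sympk, Cabin1 and Set. With the GC and length correction the log2 fold changes of Sympk and Cabin1 were 0.17 and 0.15.

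Genes of S phase and mitosis were read beside the members, since clustered histone mRNA is made in S phase. All 26 DNA synthesis genes tested had log2 fold changes above 0, with a median of 1.25. At an unadjusted p under 0.05 in edgeR, 15 of them were higher and 0 lower, beside 17.6% and 15% of all genes. After adjustment, 1 passed the test in edgeR and in limma-voom and 9 in DESeq2. That gene was Cdt1, which licenses replication origins, at 33.2, 48.6 and 88.2 CPM in KO-labelled units and 21.8, 21.6, 22.5 and 21 CPM in WT units (1.38 ± 0.28 SE, edgeR adjusted p = 0.019). It passed in 11 of 14 alternatives but not without WT unit 2 or WT unit 4, with edgeR adjusted p-values of up to 0.0618, and its log2 fold change was 0.91 without KO-labelled unit 3. The list summed to 1145, 1057 and 3234 CPM in KO-labelled units and 1002, 994, 823 and 822 CPM in WT units. All 20 mitosis genes were also above 0, and none passed in edgeR or limma-voom, while 10 had an unadjusted p under 0.05 in edgeR and 11 passed in DESeq2. Without KO-labelled unit 1 or 2, edgeR called 2 and 3 of them higher. They summed to 550, 390 and 2068 CPM in KO-labelled units and 583, 273, 229 and 197 CPM in WT units. KO-labelled unit 3 stood well above the others in both lists. Hist1h1c was as high in KO-labelled units 1 and 2, at 40.4 and 44.4 CPM, as in unit 3 at 43.7 CPM, and without unit 3 its log2 fold change was 1.81. Hist1h2bg was highest in unit 3. Single genes of the cell type lists also varied over these units in different ways. Cd79a of the B cell list was at 64.5, 45.6 and 45.9 CPM in KO-labelled units 1 to 3, and Mpo of the neutrophil list at 114, 94 and 930 CPM. The part of dividing cells and of the B cell, neutrophil, erythroid and myeloid RNA in the level of the histone members was not tested.

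**Figure D4:**
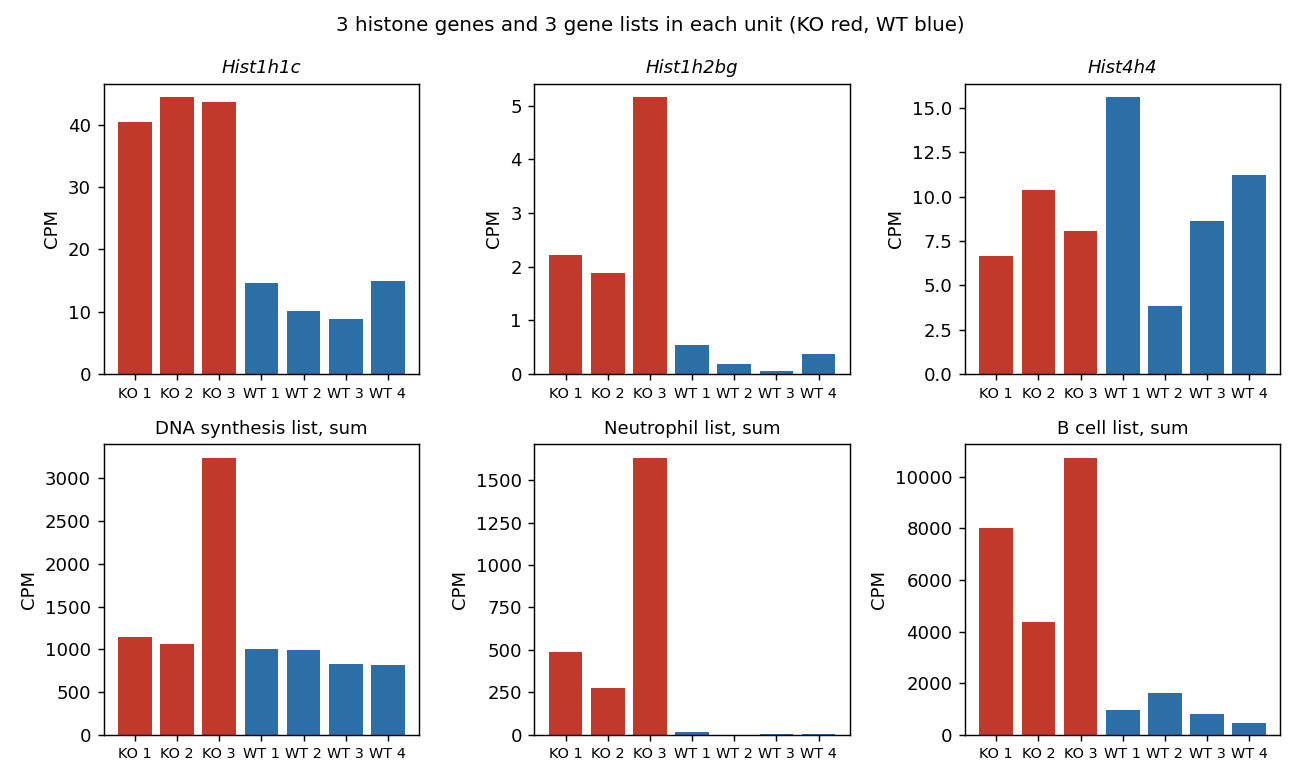
CPM by unit as bars on linear axes for Hist1h1c, Hist1h2bg and Hist4h4 and for the summed DNA synthesis, neutrophil and B cell lists. KO-labelled units are left in red and WT units right in blue. Hist1h1c lies between 40.4 and 44.4 CPM in the KO-labelled units. The DNA synthesis sum is 1145, 1057 and 3234 CPM in KO-labelled units 1 to 3.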

How the data were processed

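The authors quantified reads with kallisto against GRCm38, per the submitters' processing notes; versions and the annotation release are not given in the sources used here. Libraries were made with a non-stranded TruSeq kit from Trizol-extracted RNA, per the labels' protocols. Each deposited table holds estimated counts and TPM per transcript; how reads were trimmed or filtered is not given in the sources used here.

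Estimated counts were summed per gene with GENCODE M21 names, added over the 2 samples of a unit and rounded; 2079 of 88198 transcripts had no gene there, with 1.17% to 1.28% of counts. CPM was scaled by TMM, except in the counts by form of transcript, which used library totals. TPM per unit is the mean of the deposited TPM of its 2 samples. The samples of a unit differed little (chi-square per degree of freedom 1.44 to 1.9, against 12.8 to 202 between units) and were counted as 1 replicate. KO was compared with WT over all genes with edgeR 4.0.16 (quasi-likelihood, filterByExpr, FDR 0.05) in R 4.3.3, after a test on simulated data. That test recovered 30.9% of genes changed 2-fold and 66.7% of genes changed 4-fold. Of its 109 calls 11.9% were false, which is above the FDR of 0.05 that was set. Alternatives used DESeq2 1.42.0, limma 3.58.1 and mgcv 1.9.3. Uniqueness was the share of 31-base transcript words found in other genes. The words were taken from the GENCODE M21 sequences, which for some members differ in length from the transcripts given the counts. The floor of 3 counts covers counting error only, while the standard errors also cover the spread among units.

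The members, lists and tests were chosen with earlier results of these data known. Genes named were members past the threshold, the 6 members of highest mean TPM, the highest in each class, those next to the limit of 30 counts, up to 3 genes of each list with the smallest adjusted p, and 8 fixed genes (H2afz, H2afx, H3f3a, H3f3b, H1f0, Slbp, Npat and Casp8ap2); only those a result turns on are printed.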

Additional observations from a re-analysis of the deposited data

How the results depend on the processing

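Of 109 comparisons of a named member with its main value under 14 alternatives, 103 kept direction and side of the threshold. The number of members called higher was 2, and was 1 with a replicate block on the unit number, 1 to 3 when each unit was left out in turn (1 without KO unit 3, and 3 without WT unit 3, which adds Hist1h2bn); it was 0 lower in every setting. Filtering at 10 or more estimated counts in total tested all 34 members and called 3, adding Hist2h2aa1. Under the replicate block Hist1h2bg had a log2 fold change of 3.77 with an edgeR adjusted p of 0.0882. Deviations from the group means gave correlations of 0.027, -0.123 and -0.054 between same-numbered units, and -0.193 to 0.185 between units of different number. Deviations from means of 3 and 4 units are tied to each other. These values therefore cannot settle whether same-numbered units shared more than a number. Hist2h2aa2 reversed to -0.01 with the GC and length offset, and Hist2h3c1 reversed to 0.21 without WT unit 2, within -0.43 to 0.21 over the units left out. Over all genes the number called was 2144. It was 3546 with the DESeq2 Wald test, 612 with the replicate block, 1475 with the GC and length offset, and 758 to 1905 with a unit left out (758 without WT unit 4, 977 without KO unit 3, 1122 without WT unit 2, 1131 without KO unit 2). The share of calls that were higher was 52.1%, 46.3% with the offset, 63.8% without KO unit 2, 62% without WT unit 1 and 59.2% without WT unit 4. The cause of these changes was not tested. The filter on low counts kept 10 members out of the test.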

Other observations

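Of the Treg genes in the list read beside the members, 2 of 8 were lower in KO-labelled units in edgeR and none was higher, while DESeq2 called 4 lower and limma-voom 2. At an unadjusted p under 0.05 in edgeR, 4 were lower and 0 higher. Leaving out WT unit 1 gave 3 lower, and leaving out any other unit gave 1. Il2ra, the high-affinity IL-2 receptor chain, was at 404, 400 and 316 CPM in KO-labelled units and 692, 745, 727 and 659 CPM in WT units (edgeR adjusted p = 0.0055), and passed in 14 of 14 alternatives. The other call was Ikzf2, which encodes the transcription factor Helios, at 659, 733 and 377 CPM in KO-labelled units and 1479, 863, 907 and 1205 CPM in WT units (edgeR adjusted p = 0.0491). It passed in 5 of 14 alternatives and lost its call with any 1 unit left out, with adjusted p-values of up to 0.121. Foxp3 had a log2 fold change of 0.03 with an edgeR adjusted p of 0.923. The Treg list summed to 3140, 3470 and 2539 CPM in KO-labelled units and 4686, 3838, 3995 and 4467 CPM in WT units.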
